A study of Mus musculus with 6 samples.

Results

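The desmosomal cadherins and plaque proteins are the genes of 1 kind of cell junction, taken as 10 listed symbols: Dsg2, Dsg3, Dsg4, Dsc1, Dsc2, Dsc3, Dsp, Jup, Pkp1 and Pkp2. A member was measured where a row of the array table carried its symbol and no other gene. That held for 9 of the 10, of 14852 genes with a row of their own; Dsp was not analysed here. The family was chosen by the ATF4 against control difference of Dsg3, already known to be large, so that difference and its call are given as a description and support nothing. The other members were listed for their role in the junction, with earlier results of the same comparison known.

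The samples were C2C12 myotubes, the multinucleate muscle cells that this mouse myoblast line forms when it differentiates. In the ATF4 group (3 samples) they carried adenovirus for eGFP, a green fluorescent protein, and for FLAG-tagged ATF4, a transcription factor of the amino acid and endoplasmic reticulum stress response. In the control group (3 samples) the virus carried eGFP and FLAG-tagged ATF4deltabZIP, which lacks the DNA-binding part and is described by the submitters as inactive in transcription. Every sample was thus infected and expressed eGFP and a form of ATF4; RNA was taken 48 hours after infection and put on Affymetrix mouse exon arrays, 1 per sample. C2C12 is a single cell line, and the labels do not say whether the samples were separate cultures, so the tests cover only how these samples vary among themselves, possibly for technical reasons alone.

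Desmosomes bind neighbouring cells to each other and anchor the intermediate filaments of each. Desmogleins (Dsg) and desmocollins (Dsc) are the cadherins that reach across the gap and hold each other. Inside the cell their tails bind plakoglobin (Jup) and the plakophilins (Pkp), and desmoplakin (Dsp) links these to the filaments. The junctions are known from epidermis and from heart muscle; skeletal muscle fibres are not known for them. Dsg3 belongs to the deep layers of stratified epithelia and is the target of the autoantibodies of pemphigus vulgaris.

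The deposited values ran between 1.22 and 12.44 over the 16700 rows of each array and were read as log2, a scale inferred from this range and not stated. Array medians were 5.76 to 5.93 in the ATF4 group and 5.79 to 6.0 in the control group. The arrays of sample number 3 stood apart in both groups. Their values were squeezed toward the middle, with an SD over rows of 1.48 (ATF4) and 1.39 (control) against 1.62 to 1.67 on the other 4 arrays. The row for Atf4 averaged 8.82 ± 0.30 in ATF4 arrays and 8.86 ± 0.47 in control arrays (SD, n = 3 each); both viruses carry Atf4 sequence, so it does not check the labels. Rows of different genes have their own probes, so a level is compared only with the same row on other arrays. The number of arrays limits the precision.

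Dsg3 was the member that differed most between the groups. The Dsg3 row (transcript cluster 6859284) read 7.12, 7.41 and 6.47 on ATF4 arrays 1 to 3, against 4.55, 4.65 and 4.58 on control arrays 1 to 3. Each ATF4 value lay above each control value, and the lowest ATF4 array was number 3. The means were 7.0 ± 0.48 in ATF4 and 4.59 ± 0.05 in control arrays (SD, n = 3 each), which differ by 2.41 (standard error 0.24), or 5.30-fold. The 3 control values lay between the 13.8th and 21.3rd percentile of their arrays, near the dim end where a fold may be understated, and the 3 ATF4 values between the 65.7th and 80.8th. Within a sample number, the ATF4 array exceeded its control by 2.58, 2.75 and 1.89 for numbers 1, 2 and 3.

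By the limma test over all rows (adjusted p below 0.05), 1 of the 9 measured members, Dsg3, was called, and it was higher in ATF4 arrays. Of all rows, 0.593% were called, 0.569% as higher and 0.024% as lower in ATF4 arrays. With a replicate block for the sample number 3.56% were called, 2.4% as higher and 1.16% as lower, and Dsg3 was again the 1 member called. Nothing is read from these counts, since the call of Dsg3 is what led to the family. The median change of the 9 members was -0.01, beside -0.03 over all 16700 rows. Of these rows, 879 had an unadjusted limma p below 0.05 without the block and 2960 with it. Of the 9 members the counts were 2 without the block and 3 with it, Dsg3 among them, and nothing is read from these either. Unadjusted counts given below for gene lists are those without the block.

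**Figure D1:**
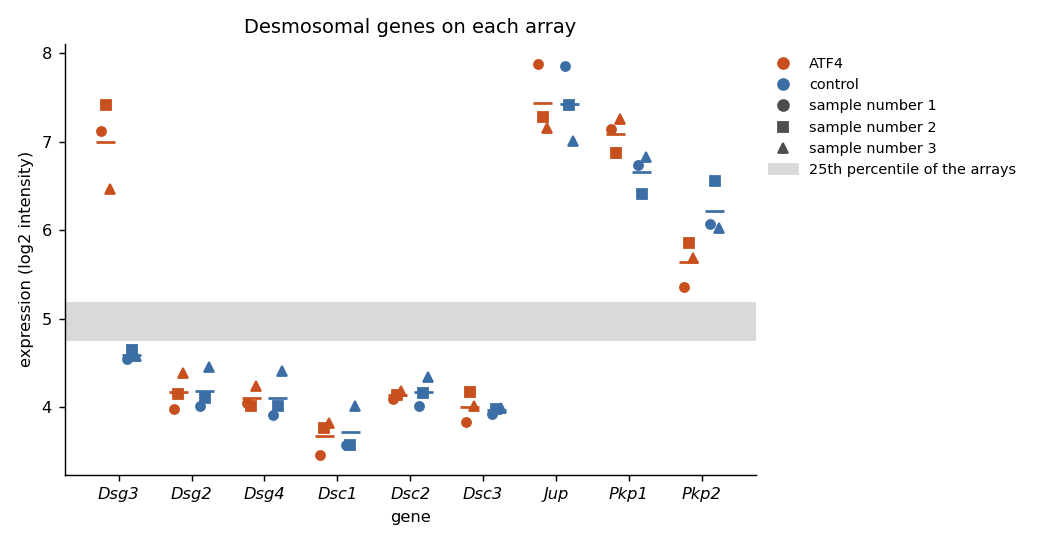
Expression (log2 intensity, vertical axis) of the 9 measured desmosomal genes on each of the 6 arrays. Points are arrays, with shape giving the sample number, horizontal bars are group means (n = 3 each), and the grey band spans the 25th percentiles of the arrays. Dsg3 lies between 6.47 and 7.41 in ATF4 arrays and between 4.55 and 4.65 in control arrays; the other 5 cadherins lie below the band in both groups.

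The closest relatives of Dsg3, the other desmogleins and the desmocollins, showed no such gap. Dsg2, the desmoglein of simple epithelia and heart, read 3.98, 4.15 and 4.39 on the ATF4 arrays, against 4.01, 4.11 and 4.45 on the control arrays. Dsg4, a desmoglein of the hair follicle, read 4.05, 4.02 and 4.24 in ATF4 arrays, against 3.91, 4.02 and 4.41 in control arrays. In both genes the groups overlapped, and within each group the highest array was number 3.

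Among the desmocollins, Dsc2, the broadly expressed form that also serves the heart, read 4.09, 4.14 and 4.19 in ATF4 arrays, against 4.02, 4.16 and 4.34 in control arrays. Dsc1, of the upper epidermis, read 3.46, 3.77 and 3.82 in ATF4 arrays, against 3.57, 3.58 and 4.01 in control arrays. Dsc3, the desmocollin of the basal epidermis where Dsg3 is also found, read 3.83, 4.17 and 4.01 in ATF4 arrays, against 3.93, 3.98 and 3.99 in control arrays. All 3 overlapped between the groups.

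The changes of these 5 paralogs ran from -0.04 (Dsc1) to 0.04 (Dsc3), and none passed (limma adjusted p = 1 for each). Without the block, their 95% intervals reached from -0.48 to 0.42 on the log2 scale. By that fit, with 3 arrays a group, shifts within these bounds could not be told from none. Their standard errors were 0.17 to 0.20 without the block and 0.08 to 0.10 with it. Intervals with the block were not computed. Every paralog value lay between the 5.31st and 12.7th percentile of its array. No detection calls were used, so whether these rows stood above background was not tested, and a change in a gene whose transcript is below what the row can register would not show.

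The change of Dsg3 exceeded the median change of the 5 paralogs by 2.42, given as a description with no test. By sample number the excess was 2.60, 2.71 and 2.04 (SD 0.36 over the 3 numbers). In number 1 the paralogs differed between groups by -0.11 to 0.14, in number 2 by -0.03 to 0.19 and in number 3 by -0.19 to 0.02. In each number the difference of Dsg3 was larger than that of each paralog. 

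**Figure D2:**
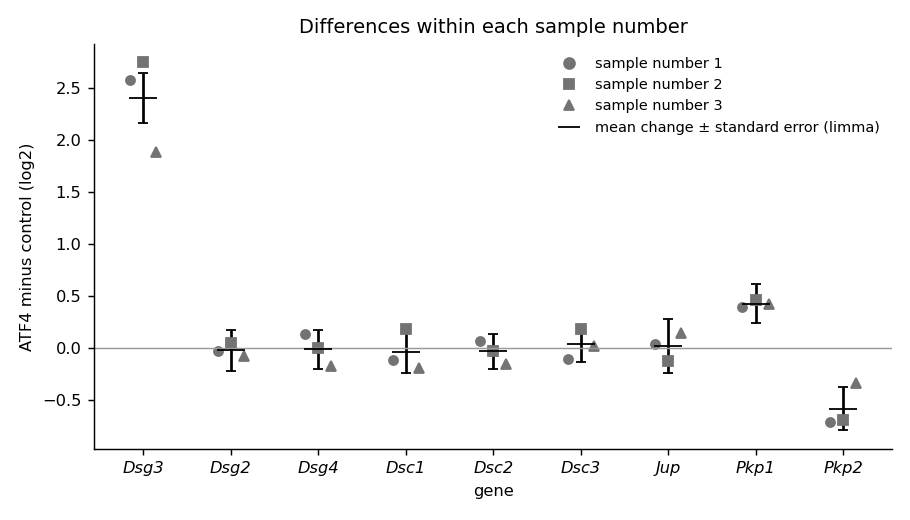
ATF4 minus control (log2, vertical axis) for each measured desmosomal gene. Grey points are the differences within sample numbers 1, 2 and 3, and the black bar with whiskers is the mean change with its standard error from limma. Dsg3 lies between 1.89 and 2.75, Pkp1 between 0.40 and 0.46 and Pkp2 between -0.71 and -0.33.

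Part of the spread of the dim rows within a group went with sample number 3. Of the 5 paralogs, 4 in the ATF4 group and 5 in the control group were highest on array 3. In the dimmest quartile of all rows, where the 5 paralogs fall, array 3 exceeded the mean of the other arrays by a median of 0.24 in the ATF4 group and 0.38 in the control group. For Dsg2 this excess was 0.32 in ATF4 and 0.40 in control arrays, and for Dsg4 it was 0.21 in ATF4 and 0.45 in control arrays. Dsg3 was not dim on the ATF4 arrays, where it lay between the 65.7th and 80.8th percentile, so the dim rows are no match for it there. On ATF4 arrays, its value on array 3 lay 0.80 below the mean of the other ATF4 arrays. In the control group its value on array 3 differed from the mean of the others by -0.02. By its mean over all arrays Dsg3 falls in the second quartile of rows, where the median difference of ATF4 array 3 from the others was 0.30. In the third and brightest quartiles that median was 0.04 and -0.26. Why Dsg3 read lower on ATF4 array 3 was not tested. With both number 3 arrays left out, a setting chosen after seeing the data, the change of Dsg3 was 2.66 and its excess over the paralog median 2.62.

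The 6 cadherin members lie with the Dsg1 genes in 1 gene cluster of the mouse genome, in the order Dsc3, Dsc2, Dsc1, Dsg1c, Dsg1a, Dsg1b, Dsg4, Dsg3 and Dsg2 (RefSeq, assembly GRCm38.p6, used here for gene order only). The neighbours of Dsg3 on its own flanks, Dsg4 and Dsg2, changed by -0.01 and -0.02. The 3 Dsg1 genes, which are near copies of each other, have no row of their own and share rows. One shared row (Dsg1c and Dsg1b) averaged 3.68 ± 0.13 in ATF4 and 3.63 ± 0.08 in control arrays, and the other (all 3 genes) 4.82 ± 0.51 in ATF4 and 4.74 ± 0.23 in control arrays (SD, n = 3 each; limma adjusted p = 1 for both).

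Beyond the cluster the nearest measured genes did not pass either. Of the 10 genes listed as neighbours, which include the Dsg1 genes inside the cluster, 5 had a row of their own, with a median change of -0.09. Kctd1 and Rnf125, farther out and not in that list, changed by -0.01 and 0.25. On the Dsg2 side, Ttr, which encodes the thyroid hormone carrier transthyretin, changed by -0.09 and the galactosyltransferase gene B4galt6 by 0.21. On the Dsc3 side, Cdh2, which encodes the N-cadherin of muscle and nerve, read 6.69, 6.81 and 6.35 in ATF4 arrays, against 7.40, 7.31 and 6.35 in control arrays. Both groups read 6.35 at sample number 3, and the mean change of Cdh2, -0.41, was not called (limma adjusted p = 1 unblocked, 0.233 blocked by sample number). The sulfotransferase gene Chst9 changed by -0.29 (limma adjusted p = 1).

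**Figure D3:**
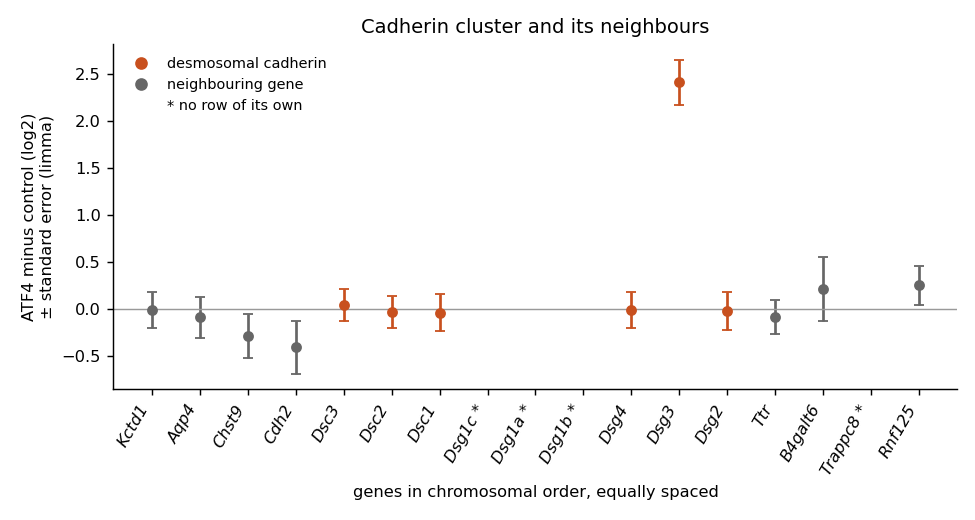
ATF4 minus control (log2, vertical axis, whiskers are standard errors from limma) for genes of the desmosomal cadherin cluster and its neighbours, in chromosomal order and equally spaced. Dsg3 stands at 2.41, between Dsg4 at -0.01 and Dsg2 at -0.02; genes marked with a star have no row of their own.

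Among the plaque proteins Jup was flat, and the 2 plakophilins had groups apart without a call. Jup encodes plakoglobin, an armadillo protein shared by desmosomes and adherens junctions. Its row read 7.88, 7.28 and 7.15 in ATF4 arrays, against 7.85, 7.41 and 7.01 in control arrays. The groups overlapped over most of their range, and in both of them array 1 was highest and array 3 lowest. The change was 0.02 (95% interval -0.56 to 0.60 and limma adjusted p = 1, both without the block). Its standard error was 0.26 without the block and 0.09 with it. Jup is in the brightest quartile of rows, where array 3 lay below the other arrays by a median of 0.26 in the ATF4 group and 0.42 in the control group; for Jup it lay 0.43 (ATF4) and 0.62 (control) below them.

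The 2 plakophilins, which gather desmosomal components in the plaque, differed in opposite directions. Pkp1, the plakophilin of the epidermis, read 7.14, 6.87 and 7.25 in ATF4 arrays, against 6.74, 6.41 and 6.82 in control arrays. All 3 ATF4 values lay above the control values, though the nearest arrays of the groups, at 6.87 and 6.82, were close. Within a sample number the difference was 0.40, 0.46 and 0.43, more even than that of any other member whose groups were apart. Pkp1 averaged 7.09 ± 0.20 in ATF4 and 6.66 ± 0.22 in control arrays (SD, n = 3 each), 1.35-fold. This was not called over all rows (limma adjusted p = 0.953 unblocked, 0.0515 blocked by sample number, and unadjusted p = 0.0507 unblocked, 0.00189 blocked).

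Pkp2, the plakophilin of simple epithelia and heart, read 5.36, 5.86 and 5.69 in ATF4 arrays, against 6.07, 6.56 and 6.02 in control arrays. All 3 ATF4 values lay below the control values. Within a sample number the difference was -0.71, -0.69 and -0.33, smallest in number 3. Pkp2 averaged 5.64 ± 0.25 in ATF4 and 6.22 ± 0.29 in control arrays (SD, n = 3 each), a ratio of 0.671. This was not called over all rows either (limma adjusted p = 0.640 unblocked, 0.0519 blocked by sample number, and unadjusted p = 0.0225 unblocked, 0.00192 blocked).

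In all, 3 of the 9 members had groups that did not overlap, 2 higher and 1 lower in ATF4 arrays. Of all rows, 9.12% had groups apart, 4.5% with ATF4 arrays higher and 4.62% with them lower, and nothing is read from the members' count because the same comparison led to the family.

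The remaining genes of the desmosome and of the cell contacts around it gave no call without the block, and 1 with it (Nectin3). Of 9 other desmosome genes 6 were measured, and 0 rose or fell (limma; 0 also at an unadjusted p below 0.05 and 0 when blocked). Over the 6 genes the median change was -0.08, with a range from -0.09 to 0.21. The epidermal adhesion protein gene Cdsn averaged 6.04 ± 0.08 in ATF4 and 5.83 ± 0.28 in control arrays, and the plakophilin relative Pkp4 6.81 ± 0.12 in ATF4 and 6.90 ± 0.21 in control arrays (SD, n = 3 each). Pkp3, the third plakophilin, changed by -0.08 and so stood with neither Pkp1 nor Pkp2.

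Cadherins outside the desmosome gave 19 measured genes of 23 listed, with a median change of -0.07. There were 0 calls by limma adjusted p with or without the block. At an unadjusted p below 0.05 there were 0 without the block. With the block Cdh1, Cdh5, Cdh2 and Cdh10 were below it (limma unadjusted p = 0.0121, 0.00727, 0.0345 and 0.0425). Their changes were 0.40, 0.41, -0.41 and 0.31. Of all 16700 rows, 2960 were below it with the block, so nothing is read from these. Cdh1, the E-cadherin of epithelia, read 5.84, 5.73 and 5.92 in ATF4 arrays, against 5.47, 5.09 and 5.74 in control arrays. Cdh5, the cadherin of vessel lining, read 4.97, 5.20 and 5.52 in ATF4 arrays, against 4.75, 4.62 and 5.08 in control arrays. Both overlapped between the groups and neither passed (limma adjusted p = 1 each). Cdh15, the M-cadherin of myoblasts and myotubes, changed by -0.21 (chosen for its role after its value was seen).

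In the adherens junction plaque 16 genes were measured, under 23 listed names that include older ones, and 0 passed (limma; 2 at an unadjusted p below 0.05); the median change was -0.07. With the replicate block 1 gene passed: Nectin3, an immunoglobulin-type adhesion receptor. It read 8.30, 8.18 and 8.14 in ATF4 arrays, against 7.76, 7.74 and 7.70 in control arrays. The groups lay clearly apart, 0.47 higher in the ATF4 mean (limma adjusted p = 0.534 unblocked, 0.0432 blocked by sample number). The catenin-like gene Ctnnal1 averaged 5.68 ± 0.23 in ATF4 and 6.31 ± 0.49 in control arrays (SD, n = 3 each; limma adjusted p = 0.762 unblocked, 0.0558 blocked). Ctnnb1, the beta-catenin that is the nearest relative of plakoglobin, changed by 0.14 (also chosen after its value was seen).

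The filaments that desmosomes hold were also without calls. Of 19 listed intermediate filament and linker genes 15 were measured, and 0 passed with or without the block (limma; 1 at an unadjusted p below 0.05), with a median of -0.05. Krt19, a keratin of simple epithelia, read 4.63, 4.81 and 4.89 in ATF4 arrays, against 5.01, 5.37 and 5.25 in control arrays, lower in each ATF4 array (limma adjusted p = 0.830). The linker gene Dst averaged 8.78 ± 0.24 in ATF4 and 8.46 ± 0.33 in control arrays (SD, n = 3 each; limma adjusted p = 1). Des, the desmin of muscle, changed by -0.14. Of 19 tight and gap junction genes 17 were measured and 0 passed with or without the block (limma). The median was -0.15, and the claudin gene Cldn12 changed by 0.32 and the occludin gene Ocln by -0.28. At an unadjusted p below 0.05 there were 0 without the block. With it Cldn12, Ocln, F11r and Jam2 were below (limma unadjusted p = 0.0364, 0.0218, 0.0151 and 0.0216). The changes of F11r and Jam2 were -0.39 and -0.29. Nothing is read from these either, since 2960 of all 16700 rows were below it with the block.

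**Figure D4:**
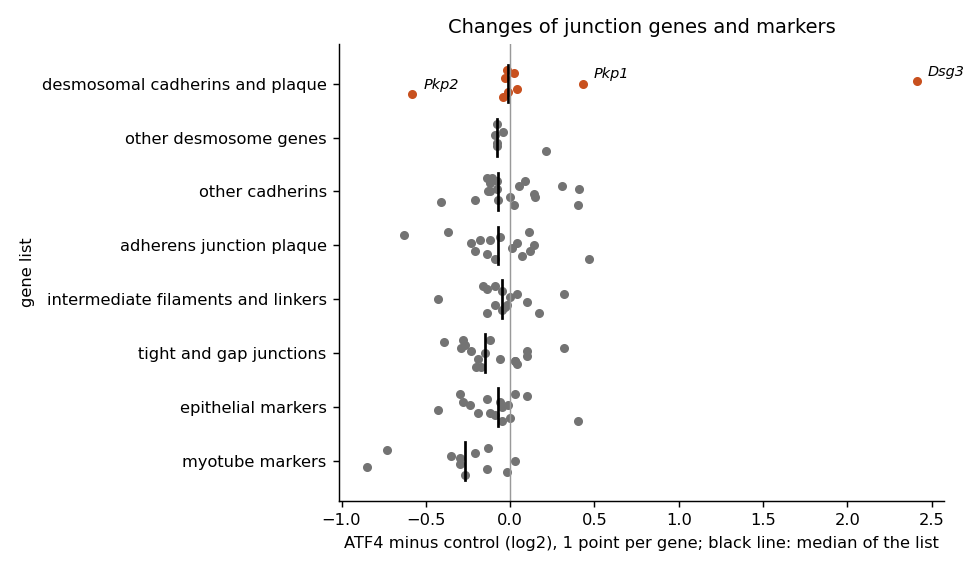
ATF4 minus control (log2, horizontal axis), 1 point per gene, for the desmosomal genes described and for lists of other junction genes and cell type markers; black lines are list medians. Dsg3 at 2.41 lies outside the range of every other list, whose genes run from -0.85 to 0.47.

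Markers of the labelled cells were measured in both groups, and most were somewhat lower in ATF4 arrays. Of 17 myotube markers 11 had a row of their own, none in the dimmest quartile of rows; the troponin gene Tnni2 read 10.44 to 11.16 in ATF4 and 10.62 to 11.38 in control arrays, and the myogenic factor gene Myog 6.49 to 6.84 in ATF4 and 6.62 to 6.72 in control arrays. The list's mean ran from 8.25 to 8.69 in ATF4 and from 8.43 to 9.01 in control arrays. The median change was -0.27, the lowest of the lists. In ATF4 arrays 10 of the 11 had a lower mean, and 7 were lower within every sample number. Other lists leaned the same way. Of the 17 tight and gap junction genes 11 had a lower mean and 7 were lower in every number, and of the 16 epithelial markers 12 and 6. These shares were not computed over all rows. The part of the myotube marker shift in the results above was not tested. Without the block 0 passed (limma; 2 at an unadjusted p below 0.05). With it Casq1, the calcium store protein calsequestrin, and the transcription factor gene Mef2c were lower in ATF4 arrays (changes of -0.85 and -0.73; limma adjusted p = 0.0194 and 0.0289 blocked, 0.468 and 0.671 unblocked).

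Since Dsg3 is an epithelial gene, markers of epithelial cells stand beside it. Of 17 such markers 16 were measured, and 0 passed with or without the block (limma; 1 at an unadjusted p below 0.05). Their summed linear intensity was 604 to 735 in ATF4 and 617 to 898 in control arrays, and their median change -0.07. Bright rows weigh most in such a sum. The marker gene Sfn read 6.52, 6.63 and 6.92 in ATF4 arrays, against 6.79, 6.41 and 7.78 in control arrays, so the sums are not read as a group difference. Krt19, with the values given above, and the epidermal transcription factor gene Trp63 were lower in each ATF4 array than in each control array. Their changes were -0.43 and -0.24. For Trp63 the nearest arrays of the groups, at 5.93 (ATF4) and 5.94 (control), were almost level. Of all rows, 4.62% were likewise apart and lower in ATF4 arrays. Cdh1, also given above, had a change of 0.40. The adhesion marker Epcam read 4.43, 4.35 and 4.57 in ATF4 arrays, against 4.43, 4.46 and 4.71 in control arrays. The keratins Krt5 and Krt14, found like Dsg3 in basal epidermis, changed by -0.05 and 0.00. These keratins and Epcam were picked for their role after their values were seen. Log2 intensities have no zero, so no marker can be called absent; 4 of the 16 had a mean in the dimmest quartile of rows. In bulk samples such as these, more RNA per cell and more cells of a type cannot be told apart.

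Rows with 1 gene symbol were ranked by how alike their pattern over the 6 arrays was to that of Dsg3, with clone-type names left out. The most alike of these were Dhrs9, Mettl7b, Slc4a10, Aldh1l2 and Vldlr. Rows left out of the ranking may be closer. Likeness was the root mean square difference between profiles after each row's control mean was subtracted, which was 0.214, 0.273, 0.299, 0.321 and 0.346 on the log2 scale. Dhrs9, a short-chain dehydrogenase gene, read 7.54, 7.54 and 7.30 in ATF4 arrays, against 4.93, 5.02 and 4.93 in control arrays. The others are a methyltransferase-like gene (Mettl7b), a bicarbonate transporter gene (Slc4a10), a mitochondrial folate enzyme gene (Aldh1l2) and a lipoprotein receptor gene (Vldlr), with changes of 2.29, 2.19, 2.44 and 2.12. In these 5 rows ATF4 array 3 lay 0.12 to 0.25 below the mean of the other ATF4 arrays, against 0.80 for Dsg3. None of the 5 is a junction gene.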

How the data were processed

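The authors deposited a table of 16700 transcript clusters by 6 arrays, whose values were read as log2 from their range. GCOS, RMA and build mm9 are named, per the submitters' processing notes; no version, setting or filter is given in the sources used here. Total RNA was amplified from whole transcripts and biotin-labelled, per the labels' protocols. Rows were named from the platform annotation (14988 with 1 symbol, 1018 with several, 694 with none); all rows stayed in the fit.

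Changes are ATF4 minus control, fitted on the whole table (limma 3.58.1 under R 4.3.3; lmFit, eBayes, two-sided, Benjamini-Hochberg over 16700 rows, threshold 0.05), with 4 residual and 6.3 prior degrees of freedom (2 and 3.77 with the block). The fit without the block was tried on simulated rows with independent noise on each array. No sample-number effect was simulated, so that trial could not check the block or the pairing. Members and lists were chosen with earlier results of these data known. Of each list, genes past the threshold were to be named (at most 4), or else the 2 with the smallest p. For Dsg3, the 5 rows most like it were to be named. Pkp3, Des, Ttr, B4galt6, Kctd1, Rnf125, Trp63, Tnni2, Myog, Cdh10, F11r and Jam2 were named outside this rule. So were the genes marked above as chosen after their values were seen.

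Deviations from group means correlated by 0.578, 0.636 and 0.782 for arrays of the same number and by -0.666 to 0.221 for others. The pairing comes from numbers in the titles, and was accepted because each same-number correlation exceeded 0.1. ATF4 array 1 with control array 2 (0.221) and ATF4 array 2 with control array 1 (0.168) exceeded 0.1 too. The rule therefore cannot show by itself that arrays of the same number are pairs, and results with the block rest on the titles. The alternatives were the replicate block, 4 rescalings, a filter on dim rows, other variance moderation, a stricter threshold and each array left out.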

Additional observations from a re-analysis of the deposited data

How the results depend on the processing

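All 9 members stayed on the same side of the threshold under every one of the 17 alternatives in which their row was present (the filter on dim rows removed the 5 paralogs). The change of Dsg3, the value that led to the family, ran from 2.20 to 2.67, and its excess over the paralog median was 2.24 to 2.75 with 1 array left out. That of Pkp1 ran from 0.31 to 0.54 and that of Pkp2 from -0.70 to -0.41, while Jup and each paralog had both signs. Over the whole table, the 99 calls became 594 with the replicate block, 57 with arrays centred on their medians, 151 with cyclic loess, 41 at an adjusted p below 0.01, 38 to 243 with 1 array left out, and 157 without and 261 with the block when both number 3 arrays were left out. The adherens junction plaque list went from 0 calls to 1 with the block (Nectin3) and to 1 with the block and without number 3 (Ctnnal1, -0.78). The myotube markers had 2 calls with the block, 2 with the block and without number 3, and 0 to 2 with 1 array left out (Casq1 and Mef2c without control array 3). The cause was not tested in any of these. The other lists kept 0 calls throughout. The dim paralog rows limit what could be seen of their changes.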
